A study of Rattus norvegicus with 12 samples.

Results

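The 3 genes described here were chosen by identifier, under names of genes known for androgen production in the Leydig cells of the testis. They are Star (ENSRNOG00000015052), Cyp17a1 (ENSRNOG00000020035) and a gene listed as Lhcgr (ENSRNOG00000016381), 3 of the 25908 genes in the table. The rats were adult Sprague Dawley males, 15 weeks old, from which RNA of testis and of brain was sequenced. The groups were hDNMT3A testis, wild-type testis, hDNMT3A brain and wild-type brain, with 3 libraries each. The hDNMT3A rats carry a transgene derived from human DNMT3A, a DNA methyltransferase that sets new methyl groups on cytosine. The promoter that drives the transgene, the number of founder lines and the part of the brain taken are not stated in the labels. Replicates are numbered in the labels but not tied to separate animals, so the p-values rest on a spread between samples that may be technical.

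Leydig cells lie between the seminiferous tubules and make testosterone when luteinizing hormone from the pituitary binds its receptor, the product of Lhcgr. The receptor raises cyclic AMP, which acts within minutes on steroid output and over hours on transcription of the steroid pathway. The Star protein moves cholesterol to the inner mitochondrial membrane, the acutely regulated step of steroid synthesis. Cyp17a1 encodes the cytochrome enzyme of the endoplasmic reticulum whose hydroxylase and lyase activities turn progestins into androgens. Star is also made in the adrenal cortex and ovary and at low level in brain, while rat Cyp17a1 is best known from testis and ovary.

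Values are FPKM, fragments scaled to gene length and to a library total, so levels of different genes can be compared per length. The reads behind them were worked out from the steps in which FPKM increases, with totals of 14004547 to 16112149 reads per library. At this depth 3 reads, the floor used for a count of 0, correspond to 0.161 to 0.186 FPKM for Star, 0.102 to 0.117 FPKM for Cyp17a1 and 0.0914 to 0.105 FPKM for the gene listed as Lhcgr. The brain libraries differed in the level of transcripts abundant in testis. Over 203 genes abundant in testis (mean of 100 FPKM or more) and near absent from brain (median of 0.5 FPKM or less), wild-type brain replicate 2 stood at 1.59% of the testis level, while the other 5 brain libraries stood at 0.0511% to 0.330%. Across genes, that library also had the lowest correlations within its group (r = 0.967 and 0.979). Among testis libraries, hDNMT3A replicate 3 correlated least with its group (r = 0.983 and 0.985, against 0.988 between the other pair).

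The names go with the identifiers chosen, since neither the deposited table nor the reference gene table used here pairs identifiers with symbols. Tissue level is a weak check of a name, since 41.5% of the genes tested were called higher in testis in hDNMT3A and in wild-type rats alike. The levels of Star and Cyp17a1 followed their labels: each was far higher in testis than in brain. The gene listed as Lhcgr did not, as it was lower in testis than in brain in either genotype. Its values are therefore given under its identifier's listing and not as evidence on Leydig cells. Lists of other steroid pathway genes and of Leydig, Sertoli, germ, peritubular, immune and brain markers could not be paired with identifiers and were not analysed here. How much of each testis library came from Leydig cells is thus not known. In whole tissue, fewer Leydig cells and less RNA per Leydig cell cannot be told apart.

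In testis, none of the 3 genes was called different between genotypes, and the values of the groups overlapped for each. Star stood at 22.0, 23.9 and 43.2 FPKM in hDNMT3A testis replicates 1, 2 and 3, and at 25.5, 37.5 and 26.1 FPKM in wild-type testis replicates 1, 2 and 3. One library of each genotype was high, hDNMT3A replicate 3 and wild-type replicate 2, and the groups overlapped. The mean was 29.7 ± 11.7 FPKM in hDNMT3A testis and 29.7 ± 6.78 FPKM in wild-type testis (SD, n = 3 each). These levels were above those of 87.2% and 87.3% of all listed genes. The log2 difference, hDNMT3A minus wild type, was -0.04 (SE 0.27, 95% interval -0.67 to 0.59, limma adjusted p = 0.969). This interval spans fold changes from 0.628 to 1.50, the range of changes compatible with these samples. It is not a limit of detection. The value depended on hDNMT3A replicate 3, the library that correlated least with its group: without it the log2 difference was -0.34 (SE 0.17, limma adjusted p = 0.468).

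Cyp17a1 stood at 22.5, 19.9 and 19.8 FPKM in hDNMT3A testis replicates 1, 2 and 3. In wild-type testis it stood at 29.7, 8.49 and 11.0 FPKM in replicates 1, 2 and 3. The hDNMT3A values lay close together and inside the range of wild type, where replicate 1 was the highest of all testis libraries and replicates 2 and 3 the lowest. The mean was 20.7 ± 1.51 FPKM in hDNMT3A testis and 16.4 ± 11.6 FPKM in wild-type testis (SD, n = 3 each). The log2 difference was 0.54 (SE 0.41, 95% interval -0.42 to 1.49, limma adjusted p = 0.704), which spans fold changes from 0.748 to 2.81. Its size exceeded that of 93.7% of the 14572 genes tested, yet its 95% interval included 0 and it was not called. Wild-type replicate 1 carried much of the spread between replicates. Without it the log2 difference was 1.06 (SE 0.13, limma adjusted p = 0.0556), and without wild-type replicate 2 it was 0.18 (SE 0.37, adjusted p = 0.932).

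The gene listed as Lhcgr stood at 1.82, 1.62 and 2.19 FPKM in hDNMT3A testis and at 2.13, 1.62 and 1.81 FPKM in wild-type testis, in replicates 1, 2 and 3. These groups overlapped over nearly their whole range. The mean was 1.88 ± 0.290 FPKM in hDNMT3A testis and 1.85 ± 0.259 FPKM in wild-type testis (SD, n = 3 each), from 49 to 72 and from 48 to 66 reads per library. The log2 difference was 0.01 (SE 0.17, 95% interval -0.38 to 0.41, limma adjusted p = 0.983). Of the 3 genes, 0 were called different between genotypes in testis by limma, 0 had an unadjusted p under 0.05 and 0 were called by voom on the recovered reads. The background was 0.576% of the genes tested called, and 11.1% with an unadjusted p under 0.05. Groups that did not overlap were seen for 0 of the 3 genes, against 17.7% of all genes tested. The exact two-sided permutation test on FPKM gave p = 1 for Star, p = 0.5 for Cyp17a1 and p = 0.7 for the gene listed as Lhcgr, where 0.1 is the smallest that 3 against 3 libraries allow.

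**Figure D1:**
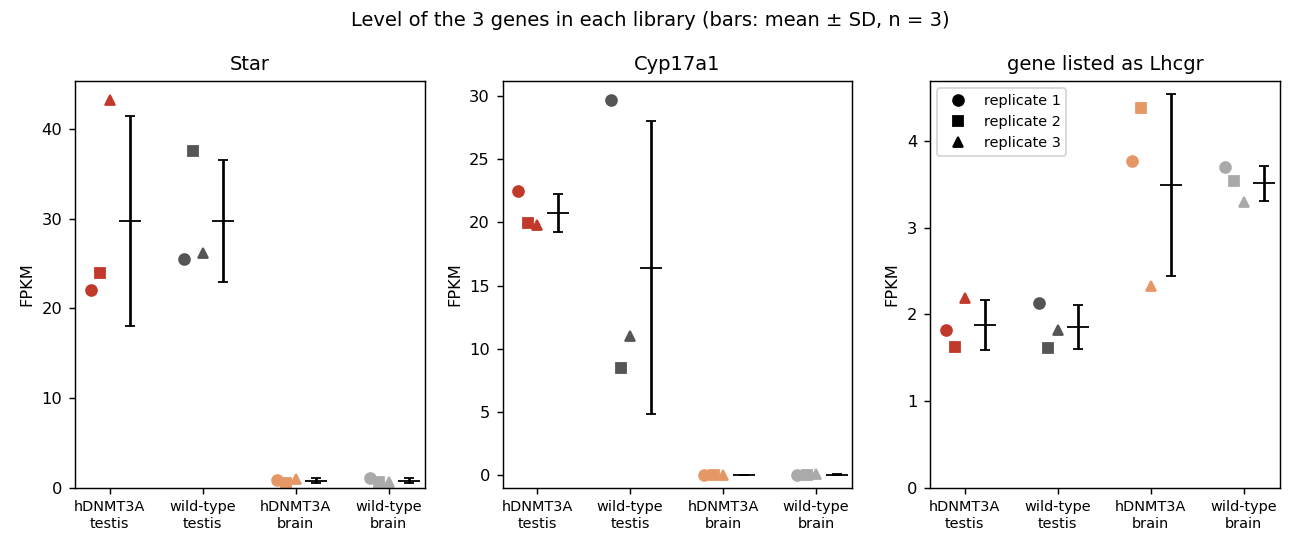
FPKM (vertical axis) of Star, Cyp17a1 and the gene listed as Lhcgr in each of the 12 libraries, by group, with 1 symbol per replicate and the mean ± SD of 3 libraries beside it. Star and Cyp17a1 lie near 0 in brain and overlap between genotypes in testis, while the gene listed as Lhcgr averages 1.88 and 1.85 FPKM in hDNMT3A and wild-type testis against 3.49 and 3.51 FPKM in hDNMT3A and wild-type brain.

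Star and Cyp17a1, which act in the same cells in successive stages of androgen synthesis, did not keep a fixed ratio from library to library. Cyp17a1 over Star, in FPKM, was 1.02, 0.834 and 0.459 in hDNMT3A testis replicates 1, 2 and 3. It was 1.17, 0.226 and 0.423 in wild-type testis replicates 1, 2 and 3. The highest and the lowest ratio, which differed 5.15-fold, were both wild type. The mean was 0.772 ± 0.287 in hDNMT3A testis and 0.605 ± 0.496 in wild-type testis (SD, n = 3 each), a difference smaller than the spread within either genotype. Wild-type replicate 1 set much of the wild-type means: without it the ratio was 0.325 and Cyp17a1 stood at 9.77 FPKM. The library with the most Star of wild type, replicate 2, had the least Cyp17a1 of all testis libraries. For the gene listed as Lhcgr the ratio to Star ran from 0.0508 to 0.0828 in hDNMT3A testis and from 0.0431 to 0.0836 in wild-type testis.

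**Figure D2:**
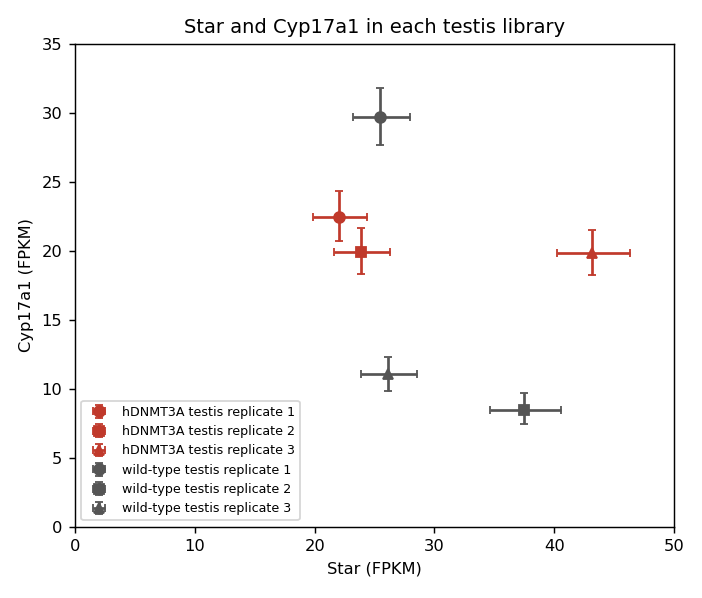
Star (horizontal axis, FPKM) against Cyp17a1 (vertical axis, FPKM) in each testis library, red for hDNMT3A and grey for wild type, with exact 95% counting intervals as bars. Cyp17a1 varies from 8.49 to 29.7 FPKM among the wild-type libraries, and Star from 22.0 to 43.2 FPKM among the hDNMT3A libraries.

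Counting error, with each read taken as independent, was small beside these differences. The exact Clopper-Pearson 95% interval for Cyp17a1 was 27.7 to 31.8 FPKM in wild-type testis replicate 1 (825 reads), 7.42 to 9.67 FPKM in replicate 2 (226 reads) and 9.87 to 12.3 FPKM in replicate 3 (322 reads). None of the 3 intervals met another. Star in hDNMT3A testis replicate 3 had an interval of 40.3 to 46.3 FPKM (803 reads), while replicates 1 and 2 together spanned 19.9 to 26.3 FPKM (383 and 409 reads). Intervals and floors cover counting error alone and not variation between samples. The libraries had no molecular identifiers and several reads can stem from 1 molecule, so the intervals may be too narrow.

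Star in either genotype and Cyp17a1 in wild type varied more between replicates than most transcripts of at least 10 FPKM. The coefficient of variation of Cyp17a1 was 7.26% over the hDNMT3A testis libraries, near the median of 7.38% of 6668 genes there. Over the wild-type testis libraries it was 70.6%, higher than for 99.8% of 6569 genes, whose median was 5.28%. For Star it was 39.5% in hDNMT3A testis, higher than for 98.8% of genes, and 22.8% in wild-type testis, higher than for 97.7%. The gene listed as Lhcgr had 15.4% in hDNMT3A testis and 14.0% in wild-type testis, higher than for 66.1% and 70.1% of genes of at least 1 FPKM. With 3 libraries a group these are descriptions, and the difference in spread between genotypes was not tested.

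**Figure D3:**
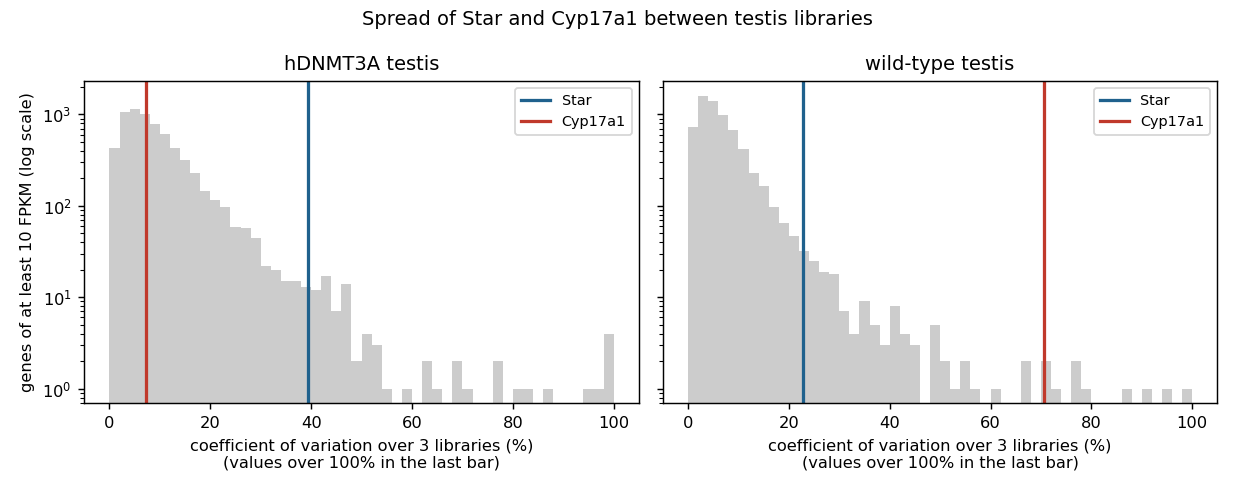
Coefficient of variation over 3 libraries (horizontal axis, percent) of all genes of at least 10 FPKM in hDNMT3A testis (left) and wild-type testis (right), with the number of genes on a log vertical axis and lines for Star and Cyp17a1. Cyp17a1 lies at 7.26% in hDNMT3A testis and at 70.6% in wild-type testis, and Star at 39.5% and 22.8%.

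In either genotype Star and Cyp17a1 were much higher in testis than in brain. Star averaged 29.7 FPKM in hDNMT3A testis against 0.793 ± 0.258 FPKM in hDNMT3A brain, and 29.7 FPKM in wild-type testis against 0.802 ± 0.258 FPKM in wild-type brain (SD, n = 3 each). The ratio of the means was 37.5-fold with the transgene and 37.0-fold without it. The log2 differences, testis minus brain on the log2(FPKM + 0.5) scale, which understates the change of low genes, were 4.50 (SE 0.27, limma adjusted p = 1.3e-06) in hDNMT3A rats and 4.53 (SE 0.20, adjusted p = 1.2e-06) in wild-type rats. Every testis library lay above every brain library. These sizes exceeded those of 86.5% and 87.2% of the genes tested.

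Cyp17a1 had 540 to 619 reads in each hDNMT3A testis library, against 0 reads in each of the 3 hDNMT3A brain libraries. Taken against a floor of 3 reads over the brain group, it was at least 582-fold higher in hDNMT3A testis. In wild type, 1373 reads over the testis libraries stood against 3 reads over the brain libraries, of which replicate 1 had 1, replicate 2 had 0 and replicate 3 had 2. That ratio, scaled to library depth, was 442 (95% counting interval 151 to 2148). The fitted log2 differences were 5.41 (SE 0.11, limma adjusted p = 4.1e-09) in hDNMT3A rats and 4.77 (SE 0.44, adjusted p = 4.3e-05) in wild-type rats. They depend on the pseudocount, because the brain values lie at or near 0.

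The gene listed as Lhcgr had the opposite order. It stood at 3.77, 4.38 and 2.33 FPKM in hDNMT3A brain and at 3.70, 3.54 and 3.29 FPKM in wild-type brain, in replicates 1, 2 and 3, and each of these values was above each testis value. In hDNMT3A rats the mean was 1.88 FPKM in testis and 3.49 ± 1.05 FPKM in brain, and the log2 difference, testis minus brain, was -0.72 (SE 0.22, limma adjusted p = 0.0146). In wild-type rats the mean was 1.85 FPKM in testis and 3.51 ± 0.204 FPKM in brain (SD, n = 3 each), with a log2 difference of -0.77 (SE 0.12, limma adjusted p = 0.000764). The direction was the same under both scalings of the libraries. The size of the log2 difference was not, though relative to the median of all genes tested it was similar. The median of all genes tested lay at -0.21 in hDNMT3A rats and -0.23 in wild-type rats, and relative to it the gene stood at -0.51 and -0.54. With median-ratio scaling the gene's log2 difference was -0.35 (limma adjusted p = 0.159) in hDNMT3A rats and -0.40 (adjusted p = 0.0238) in wild-type rats. The median of all genes then moved to 0.19 and 0.17. Relative to this median the gene stood at -0.54 in hDNMT3A rats and -0.57 in wild-type rats. The hDNMT3A call was also lost without hDNMT3A testis replicate 2 (-0.64, limma adjusted p = 0.0542), without hDNMT3A brain replicate 1 (-0.65, adjusted p = 0.0506) and without hDNMT3A brain replicate 2 (-0.55, adjusted p = 0.053).

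All 3 genes were called different between the tissues in hDNMT3A and in wild-type rats, 2 higher and 1 lower in testis. Calls higher in testis made up 41.5% of the genes tested in hDNMT3A rats and 41.5% in wild-type rats, and calls lower in testis 47.6% and 48.2%. Since 89.1% of the genes tested were called in hDNMT3A rats and 89.7% in wild-type rats, this count is near the background. Groups without overlap were likewise seen for 3 of 3 genes, against 89.6% and 90.8% of all genes tested. In size the tissue difference of Star and Cyp17a1 exceeded that of most genes, for Cyp17a1 91.5% in hDNMT3A and 88.7% in wild-type rats. Both genes still lay below the 95th percentile of all genes tested, 5.77 in hDNMT3A and 5.47 in wild-type rats. The gene listed as Lhcgr did not stand out, its difference exceeding that of 21.6% and 22.7% of genes.

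**Figure D4:**
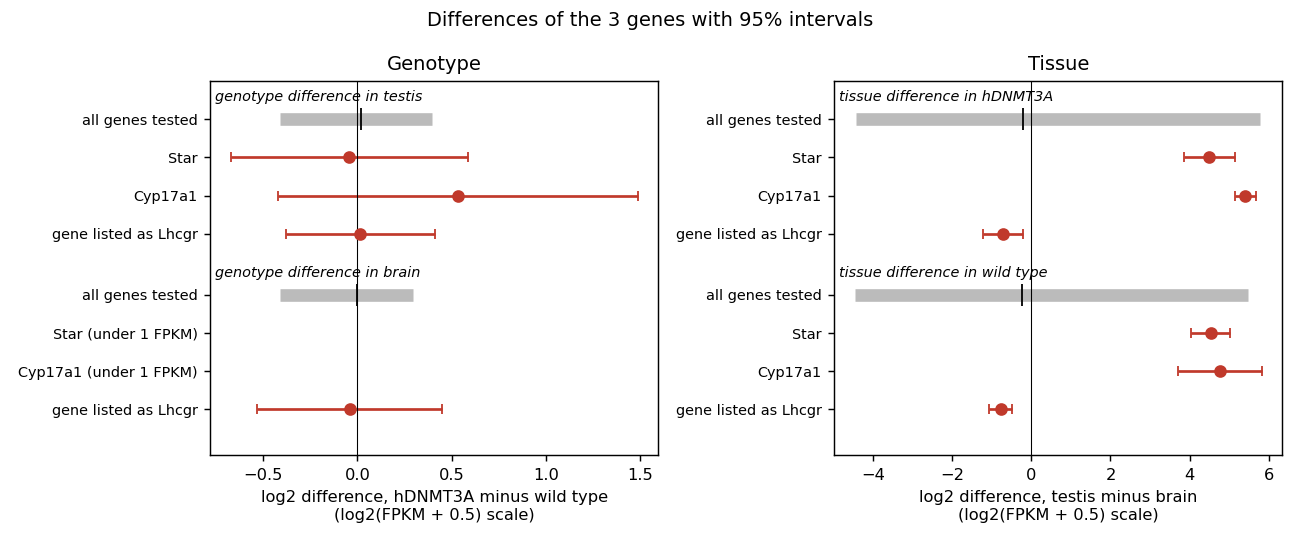
Log2 differences of the 3 genes (red points, 95% limma intervals) between genotypes (left, hDNMT3A minus wild type) and between tissues (right, testis minus brain), with the span from the 5th to the 95th percentile of all genes tested (grey bar) and their median (tick). The genotype intervals cross 0, and the tissue intervals lie above 0 for Star and Cyp17a1 and below 0 for the gene listed as Lhcgr.

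RefSeq promoters (assembly GRCr8) matched 1 of the 3 symbols, Lhcgr, and its promoter is shown for that reason. The match was by symbol, and whether this promoter belongs to the gene measured as ENSRNOG00000016381 could not be checked. The 250 bases before its start, at chr6:11415165-11415414 on the plus strand, are given in lower case with matches to the GC box GGGCGG and to AGGTCA, the core hexamer bound by nuclear receptors, in capitals.
Lhcgr: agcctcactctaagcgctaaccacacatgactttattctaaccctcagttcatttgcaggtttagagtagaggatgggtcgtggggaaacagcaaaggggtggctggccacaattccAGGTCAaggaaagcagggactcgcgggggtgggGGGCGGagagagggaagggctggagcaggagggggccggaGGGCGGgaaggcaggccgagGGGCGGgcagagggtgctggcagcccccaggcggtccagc

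A GC box was found 3 times, starting 100, 60 and 40 bases before the gene start, and 30.5% of 33469 promoters of the same length hold it on either strand. The AGGTCA hexamer was found once, 133 bases before the start, and 14.1% of promoters hold it. TATAAA was found 0 times, and 12.9% of promoters hold it. The window has 63.2% G and C, more than 81.3% of promoters. It holds 10 CG dinucleotides, the site that DNA methyltransferases modify, against a median of 5, and 64.1% of promoters hold fewer. The motifs do not overlap each other apart from CG within GGGCGG. These matches describe the letters of the window, and methylation was not measured here.

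Between genotypes the brain values of the 3 genes overlapped. Star stood at 0.910, 0.497 and 0.971 FPKM in hDNMT3A brain (9 to 17 reads) and at 1.10, 0.681 and 0.627 FPKM in wild-type brain (11 to 19 reads), in replicates 1, 2 and 3. Its mean was under the 1 FPKM needed for the fit across genes, as was that of Cyp17a1, so neither entered that fit in brain. With no filter on low values, the log2 difference was -0.01 (limma adjusted p = 1.0) for Star and -0.10 (adjusted p = 0.844) for Cyp17a1. The exact two-sided permutation test gave p = 1 for Star (n = 3 each). For the gene listed as Lhcgr the log2 difference was -0.04 (SE 0.21, 95% interval -0.53 to 0.45, limma adjusted p = 0.985, unadjusted p = 0.847). It was the 1 gene of the 3 in the fit in brain, where 0.116% of genes tested were called, and voom on the recovered reads did not call it. Values of its groups overlapped, while 13.4% of the genes tested had groups that did not. The difference between tissues in its genotype effect, testis minus brain, was 0.06 (95% interval -0.53 to 0.64, limma adjusted p = 0.991), where 0.421% of genes were called. Star and Cyp17a1 entered this fit when no filter was set, with values of -0.03 (limma adjusted p = 1.0) and 0.63 (SE 0.49, adjusted p = 0.819).

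Wild-type brain replicate 2, the library with testis transcripts at 1.59% of their testis level, had 11 reads of Star and 0 reads of Cyp17a1. An equal share of the mean testis level would have been 7.65 reads of Star and 7.58 reads of Cyp17a1 in that library. The share was measured on transcripts chosen by tissue level alone, which need not come from the cells that express these 2 genes. The floor of 3 reads is 0.117 FPKM for Cyp17a1 in that library, and such a share amounts to 0.296 FPKM. In the other 5 brain libraries the share amounted to 0.267 to 1.70 reads of Star, against 9 to 19 reads found. Without wild-type replicate 2, the wild-type brain mean of Star was 0.862 FPKM. The part of such transcripts in the brain values was not tested. The tissue difference of Star in wild type was 4.47 on the log2 scale without that library, and that of the gene listed as Lhcgr was -0.77.

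**Figure D5:**
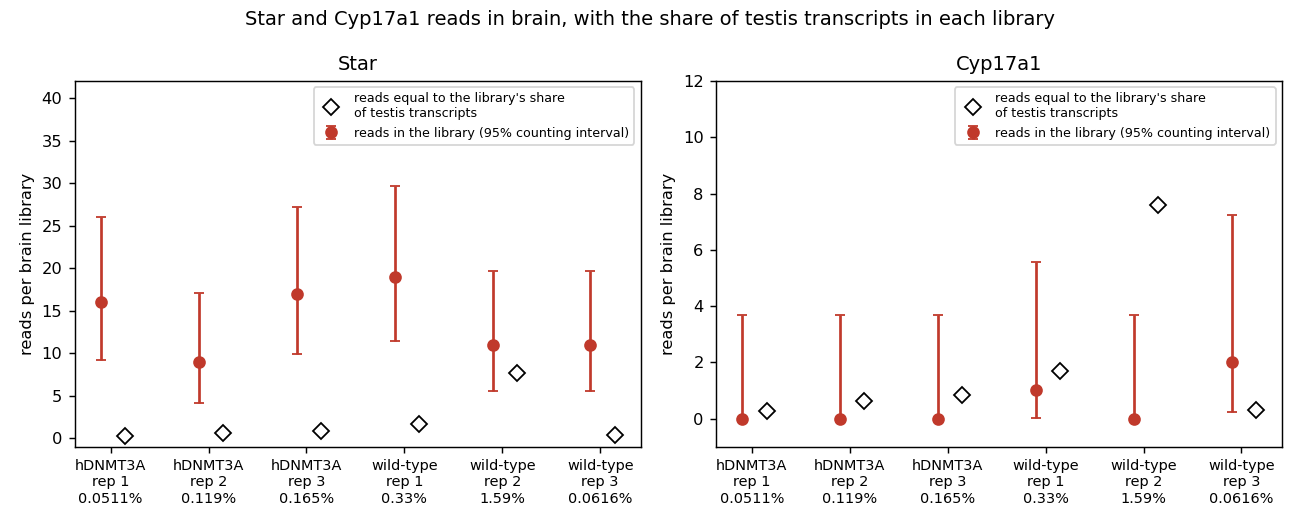
Reads of Star (left) and Cyp17a1 (right) in each brain library (red points, exact 95% counting intervals) and the reads that would equal the library's share of testis transcripts (open diamonds), with that share in percent under each library. In wild-type replicate 2, at 1.59%, Cyp17a1 has 0 reads where the share amounts to 7.58.

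Likeness of pattern was measured as Pearson's r of log2(FPKM + 0.5). Over the 6 testis libraries and 14571 other genes of at least 1 FPKM, the genes most like Star were ENSRNOG00000011895 (r = 0.997) and ENSRNOG00000037768 (r = 0.990). For Cyp17a1 they were ENSRNOG00000016716 (r = 0.996), at 68.7 FPKM in hDNMT3A testis and 67.2 FPKM in wild-type testis against 0.985 and 1.18 FPKM in brain, and ENSRNOG00000019729 (r = 0.990). For the gene listed as Lhcgr they were ENSRNOG00000025787 (r = 0.989) and ENSRNOG00000054486 (r = 0.986). No identifier in these pairs has a name in the tables used. With so many genes and 6 libraries, whose depth and composition all genes share, these values are a description.

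The 3 genes were not among each other's nearest patterns in testis. Star and Cyp17a1 had r = -0.40, lower than Star had with all but 21.4% of genes. Cyp17a1 and the gene listed as Lhcgr had r = 0.59, higher than Cyp17a1 had with 92.5% of genes. Over all 12 libraries, where the tissues set the pattern, Star and Cyp17a1 had r = 0.97, and 5109 genes reached 0.95 with Star and 4899 with Cyp17a1. For the gene listed as Lhcgr 3 genes did, the nearest being ENSRNOG00000000718 (r = 0.970), at 9.75 and 9.25 FPKM in hDNMT3A and wild-type testis and 13.9 and 14.3 FPKM in hDNMT3A and wild-type brain.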

How the data were processed

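Values are the authors' FPKM, deposited as 1 table (25908 genes, 12 libraries). The libraries were made from total RNA with an Illumina TruSeq kit, per the labels' protocols. Per the submitters' processing notes, Bowtie 1.0.1 and the build Rnor_6.0 were used. No source used here names the annotation, the counting tool or its use of strand, so overlapping genes have uncertain values. The reference gene table (GRCr8, 47357 genes) matched 0 of the identifiers. Each gene's 12 values were whole multiples of 1 read, within 0.002 reads and for lengths of up to 60000 bp, in 100% of genes, which gave reads and library totals. Genes with few nonzero values meet this rule easily. After small random changes to the values, 0.056% of 1785 genes with several nonzero values still met it. The shortest fitting length was taken, so the reads are the fewest that fit. Within groups, chi-square per gene between 2 libraries was 4.53 to 13.4, more than counting error alone gives. This value cannot tell separate animals from repeated preparations of the same animal. Each library was counted as a separate sample.

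Groups were compared in limma (version 3.58.1, R 4.3.3) by two-sided tests on log2(FPKM + 0.5) that allowed for a trend with intensity. Genes entered if they averaged 1 FPKM or more, for the interaction in testis and also in brain. Calls were made at a Benjamini-Hochberg adjusted p under 0.05 over all genes tested. A fold change on this scale understates that of low genes. Other values used Python 3.11.15 and scipy 1.17.1. Alternatives changed the pseudocount, filter, scaling, model (voom on reads), libraries fitted and replicate block. The genes named are the 3 members and those of most similar pattern. Members, lists, the class of testis transcripts and tests were chosen with earlier results of these data known, and the comparison of spread between replicates after the values were seen.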

Additional observations from a re-analysis of the deposited data

How the results depend on the processing

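The 11 tested results on the 3 genes were recomputed under 148 alternatives, and 135 kept direction and side of the threshold. None of 70 genotype or interaction alternatives gave a call. Leaving out 1 library moved the log2 genotype difference in testis from -0.34 to 0.14 for Star, from 0.18 to 1.06 for Cyp17a1 and from -0.078 to 0.098 for the gene listed as Lhcgr, whose brain difference ran from -0.20 to 0.19 and whose interaction ran from -0.17 to 0.22. Star and the gene listed as Lhcgr changed sign within these ranges. The tissue difference of the gene listed as Lhcgr in hDNMT3A rats was -0.35 with median-ratio scaling, not called, and -0.95 to -0.55 without 1 library. Relative to the median of all genes tested, the gene stood at -0.51 in the main fit and -0.54 with median-ratio scaling. The cause of these shifts was not tested.

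Over all genes, testis calls numbered 190 with voom, 247 with all 12 libraries in 1 fit and 20 to 80 without 1 library, against 84. Brain calls numbered 7 with a pseudocount of 0.1, 57 with all 12 libraries and 2 to 8 without 1 library, against 16. Interaction calls numbered 103 with no filter and 25 to 44 without 1 library, against 46.

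With the replicate number as a block, testis calls were 39, brain calls 0 (742 genes with an unadjusted p under 0.05) and interaction calls 1, and Cyp17a1 in testis kept a log2 difference of 0.54 (limma adjusted p = 0.553). Deviations of same-numbered libraries correlated at 0.047 to 0.107 between the testis groups, where each library correlated best with its own number, at -0.219 to -0.044 between the brain groups, at -0.015 to 0.199 between the hDNMT3A tissues and at -0.012 to 0.030 between the wild-type tissues. The labels do not state pairs, and the main fits did not use the numbers. Whether same-numbered testis libraries shared a batch was not tested. With the block, the SE of the Cyp17a1 difference in testis was 0.30, against 0.41 in the main fit.

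Of 62 alternatives for values without a test, 55 moved by less than 1 SD. With median-ratio scaling Cyp17a1 averaged 23.7 FPKM in hDNMT3A testis, and the gene listed as Lhcgr 2.17 FPKM in wild-type testis and 2.98 FPKM in wild-type brain. In reads in place of FPKM, which does not correct for length, Cyp17a1 over Star was 1.22 in hDNMT3A testis, and the gene listed as Lhcgr over Star 0.119 in hDNMT3A and 0.115 in wild-type testis. Testis transcripts stood at 0.203% in hDNMT3A brain with a class minimum of 10 FPKM, against 0.112%.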
